A study of Homo sapiens with 14 samples.

Results

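Acetylation of histone H3 at lysine 27 (H3K27ac) was mapped by CUT&Tag in Jurkat cells in which SATB1 had been knocked down, and in control cells. The libraries described here are 4 of 14 in the series: 2 from cells given a lentiviral shRNA against SATB1 (shSATB1) and 2 from cells given a lentiviral control shRNA (shCtrl), chosen by the target and the shRNA on their labels. Jurkat is an established line from a human T cell acute lymphoblastic leukaemia, so both arms are this 1 leukaemia line carrying a lentivirus. CUT&Tag binds the Tn5 transposase to an antibody on chromatin, so that DNA near the target is cut and tagged for sequencing. Each library came with 1 list of peaks called by SEACR, and peaks of the 4 lists on chromosomes 1 to 22 and X that shared at least 1 bp were merged into 20526 regions. Whether the replicates are separate cultures is not on the labels, so the spread a p-value rests on may be technical. SATB1 was mapped in shCtrl cells alone, so the lists do not check how far the protein was reduced.

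H3K27ac is written by the acetyltransferases p300 and CBP and removed by histone deacetylases. It lies on nucleosomes beside active promoters and active enhancers, and long stretches of it mark genes of cell identity. SATB1 is a nuclear protein abundant in thymocytes that binds AT-rich DNA, recruits chromatin-modifying enzymes and helps hold T cell loci in loops. In the text below a gene-end region lies within 2 kb of either annotated end of a protein-coding gene, and every other region is distal. A region is called lost where both shCtrl lists and neither shSATB1 list hold a peak in it, and gained where both shSATB1 lists and neither shCtrl list do.

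The promoters of 4 genes that lay wholly inside a lost or a gained region are printed here, because they show gene starts at which the mark was called in 1 arm alone. They come from 15 genes looked up, those of the highest-ranked lost and gained gene-end regions and the listed genes that lost a call, of which 14 were in the RefSeq promoter table of GRCh38.p14. Each line runs 5′ to 3′ over 300 bases around the annotated start, on the plus strand, in lower case. Capitals mark the motifs found on either strand, the GC box (GGGCGG or CCGCCC), the CCAAT box (CCAAT or ATTGG) and the TATA box (TATAAA). GADD45B (lost, chr19:2475877-2476176) encodes a stress-induced growth-arrest protein, and CCR4 (lost, chr3:32951394-32951693) a chemokine receptor of skin-homing and type 2 helper T cells. The CCR4 loss did not hold with lists cut to equal length, where shCtrl replicate 1 had no peak at its end. DCAF4 (gained, chr14:72926214-72926513) encodes a substrate receptor of a cullin ubiquitin ligase, and ZSCAN20 (gained, chr1:33472395-33472694) a zinc finger protein.
GADD45B: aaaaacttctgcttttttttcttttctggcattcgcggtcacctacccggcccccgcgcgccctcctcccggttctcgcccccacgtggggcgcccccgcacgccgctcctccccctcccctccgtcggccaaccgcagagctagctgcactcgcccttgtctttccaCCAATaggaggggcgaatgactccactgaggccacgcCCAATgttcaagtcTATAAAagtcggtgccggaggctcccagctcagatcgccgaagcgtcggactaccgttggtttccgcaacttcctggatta
CCR4: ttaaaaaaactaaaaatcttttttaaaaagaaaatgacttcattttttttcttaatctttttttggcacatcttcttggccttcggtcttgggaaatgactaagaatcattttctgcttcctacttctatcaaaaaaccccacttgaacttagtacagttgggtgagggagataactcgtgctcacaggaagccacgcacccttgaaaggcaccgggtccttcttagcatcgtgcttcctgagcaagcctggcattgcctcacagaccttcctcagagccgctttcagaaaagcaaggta
DCAF4: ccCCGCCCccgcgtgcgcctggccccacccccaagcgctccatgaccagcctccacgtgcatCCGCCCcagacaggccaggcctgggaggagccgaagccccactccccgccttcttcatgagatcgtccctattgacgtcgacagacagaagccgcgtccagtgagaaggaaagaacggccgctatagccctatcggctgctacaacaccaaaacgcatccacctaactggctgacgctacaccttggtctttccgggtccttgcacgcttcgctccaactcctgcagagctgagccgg
ZSCAN20: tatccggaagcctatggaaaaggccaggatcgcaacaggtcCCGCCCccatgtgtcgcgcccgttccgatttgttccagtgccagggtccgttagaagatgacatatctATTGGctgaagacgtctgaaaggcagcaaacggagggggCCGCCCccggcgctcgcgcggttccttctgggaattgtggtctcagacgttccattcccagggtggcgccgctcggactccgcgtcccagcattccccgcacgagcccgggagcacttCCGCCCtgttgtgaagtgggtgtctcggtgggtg
The GADD45B window held 2 CCAAT boxes and a TATA box, with 27 CpG dinucleotides and 61.7% G or C. The CCR4 window held none of the motifs searched, with 6 CpG dinucleotides and 41.7% G or C. The gained windows of DCAF4 and ZSCAN20 were GC-rich, at 63.7% and 62.3%, and held GC boxes. Of promoters that overlapped a gained region, 77.0% of 74 held a GC box, against 67.4% of 89 in lost regions, 71.6% of 5451 in regions called in all libraries and 58.5% of all 15811 in the table. A TATA box was in 1.35% of the gained promoters, 5.62% of the lost, 5.03% of those in regions called in all libraries and 9.64% of all, and a CCAAT box in 41.9%, 28.1%, 40.2% and 36.3%. The letters of 4 other motifs (ETS, CCGGAAGT; RUNX, TGTGGTT; E-box, CAGCTG; AP-1, TGANTCA) were in 8.11%, 2.7%, 10.8% and 0.0% of the gained promoters and in 8.99%, 3.37%, 13.5% and 2.25% of the lost ones. They were in 10.9%, 3.23%, 15.4% and 3.61% of promoters in regions called in all libraries, and in 6.19%, 3.55%, 17.7% and 5.76% of all.

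The shSATB1 lists held about as many H3K27ac peaks as the shCtrl lists, but shorter ones. There were 17925 and 15972 peaks in the shSATB1 libraries and 17863 and 17141 in the shCtrl libraries, and replicate 2 of shSATB1 lay below the rest. The median peak was 1807 and 1784 bp wide in shSATB1, against 2074 and 2087 bp in shCtrl, a difference of −285 bp or −13.7% (exact permutation p = 0.333, which is the floor for 2 against 2). Both shSATB1 medians lay below both shCtrl medians. Peaks covered 46.5 and 41.0 Mb in shSATB1 and 53.8 and 52.0 Mb in shCtrl, again without overlap between the arms.

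Gene-end and distal peaks were narrower alike. At gene ends the median width was 1821 and 1753 bp in shSATB1 and 2068 and 2058.5 bp in shCtrl. Away from gene ends it was 1797 and 1814 bp in shSATB1 and 2082 and 2107 bp in shCtrl. Gene-end peaks made up 40.6% and 41.2% of the shSATB1 lists and 40.4% and 40.9% of the shCtrl lists, a difference within the spread between replicates. The lists also ended at different signal. The weakest peak of a list had a total signal of 4405 and 4476 in shSATB1 and of 6836 and 6653 in shCtrl, and the median peak maximum was 21 and 20 in shSATB1 and 31 and 29 in shCtrl, in the authors' unscaled signal. Library depth is unknown, and the part of these differences in the widths was not tested.

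**Figure D1:**
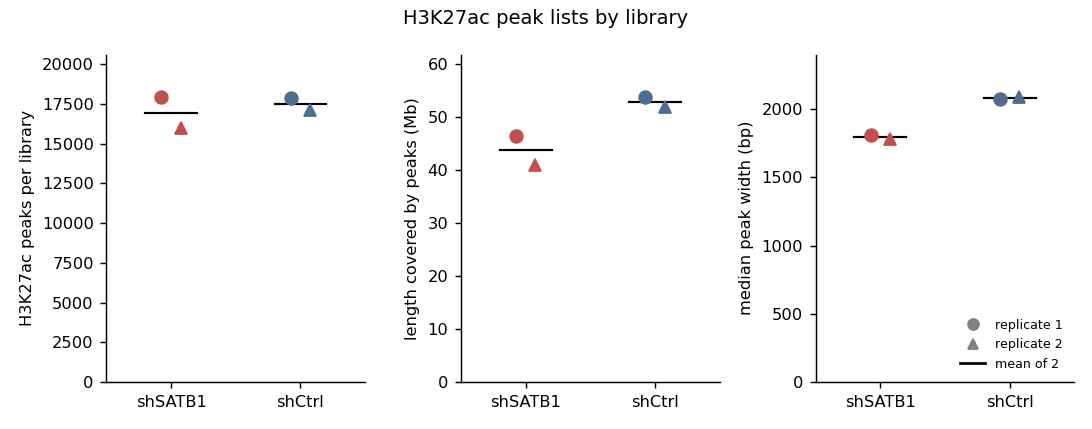
Number of H3K27ac peaks, length they covered (Mb) and median peak width (bp) in each library, with shSATB1 left of shCtrl; points are libraries and bars the mean of 2. The peak numbers of the arms overlap, while both shSATB1 libraries lie below both shCtrl libraries in covered length (46.5 and 41.0 against 53.8 and 52.0 Mb) and in width.

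T cell marker genes carried H3K27ac in both arms. A peak lay at an end of 11 and 11 of 12 T cell marker genes in shSATB1 and of 12 and 11 in shCtrl, with CD5 as the 1 gene missing from some lists. Of 5 genes of the TAL1 leukaemia circuit, TAL1, LMO1, RUNX1 and MYB had such a peak in every library, and GATA3 had H3K27ac inside the gene but at neither end. Of other lineages, B cell markers had it at 5 of 12 genes in each library and erythroid and megakaryocyte markers at 3 of 12. Myeloid markers had it at 2 of 14 genes in each library, epithelial and stromal markers at 0 of 12. At SATB1 itself (chromosome 3, 18345377 to 18445592) peaks covered 40.9 and 35.6 kb in shSATB1 and 38.7 and 35.4 kb in shCtrl, and the arms overlapped.

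Of the 20526 regions, 12261 (59.7%) were called in all 4 libraries, 1221 (5.95%) were lost and 537 (2.62%) were gained. Lost calls were mainly distal. Of gene-end regions 173 (2.16%) were lost, while of distal regions 1048 (8.38%) were lost. Gained calls showed the same split at lower numbers, with 102 gene-end regions (1.27%) and 435 distal regions (3.48%). Gene ends thus made up 14.2% of lost regions (95% interval 12.3 to 16.2) and 18.99% of gained regions (15.9 to 22.5), against 48.4% of regions called in all libraries. The other 6507 regions, called in some libraries of either arm, held 37.5% of distal and 22.7% of gene-end regions. A tilt to distal places was thus not limited to lost and gained regions. Gene ends still made up more of these other regions than of the lost or the gained ones. Inside genes 8.02% of distal regions were lost and 3.47% gained, and outside genes 8.86% and 3.5%.

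Losses outnumbered gains by less when each list was limited to its 15972 highest peaks, the length of the shortest list. Of 18924 regions 1004 (5.31%) were then lost and 625 (3.3%) gained. The lost regions were 165 at gene ends (2.14%) and 839 distal (7.48%), and the gained ones 137 at gene ends (1.78%) and 488 distal (4.35%). Distal regions were called in 71.8% and 71.1% of cases in shSATB1 and 76.8% and 76.6% in shCtrl at equal length. Gene-end regions were called in 89.0% and 84.8% of cases in shSATB1 and 87.7% and 87.6% in shCtrl, so there the arms overlapped. Counts depended on single libraries, since with 1 left out fewer lists have to hold or to lack a peak. With shSATB1 replicate 1 left out, 2437 regions were lost, 24.7% of them at gene ends, and 1011 gained. With its replicate 2 left out the numbers were 1591 and 1730, so gains then outnumbered losses. Leaving out shCtrl replicate 1 gave 2008 and 948, and leaving out its replicate 2 gave 2383 and 808.

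**Figure D2:**
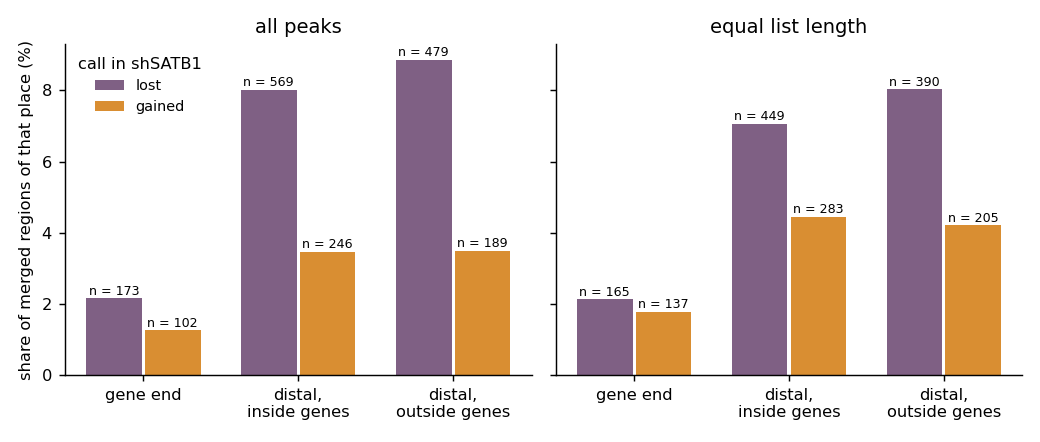
Share of merged H3K27ac regions of each place that was lost or gained in shSATB1 (%), for all peaks and for lists of equal length, with the number of regions above each bar. With all peaks 8.02% and 8.86% of distal regions inside and outside genes and 2.16% of gene-end regions were lost, and losses exceeded gains in each place.

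Lost and gained regions were shorter, and lower in their lists, than regions called in all libraries. The median lost region was 1944 bp and the median gained region 1651 bp, against 3007 bp for regions called in all libraries. The other 6507 regions (31.7%), called in some libraries of either arm, had a median of 1622 bp, so short regions were not limited to those lost or gained. In this paragraph and for the lost and gained regions and differences in length named next, a percentile is the rank among all peaks of a list. Within the shCtrl lists the median percentile of the lost regions, by peak maximum, was 21.6 and 18.5, while regions called in all libraries had medians of 64.8 and 63.3. Within the shSATB1 lists the gained regions had 24.98 and 21.4, against 63.4 and 59.4. A mean percentile under 25 was seen for 61.2% of lost and 54.4% of gained regions, and one above 75 for 5 lost regions and 1 gained region. The nearest region called in all libraries was a median of 24.0 kb from lost and 26.6 kb from gained regions.

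SATB1 overlap differed between lost and gained regions in the same way at gene ends and away from them. Regions of SATB1 in shCtrl cells, taken from both SATB1 lists and used as 1 annotation, overlapped 13.3% of lost gene-end regions (95% interval 9.02 to 19.2) and 12.8% of lost distal regions (10.9 to 14.9). They overlapped 39.2% of gained gene-end regions (30.3 to 48.9) and 42.8% of gained distal regions (38.2 to 47.5). Regions called in all libraries had SATB1 at 61.4% of gene-end and 64.7% of distal regions. The other 6507 regions, short like the lost and gained ones, had it at 19.8% of gene-end and 19.8% of distal regions. Lost regions were thus below and gained regions above the shares of these other regions, and both lay below regions called in all libraries. At equal list length SATB1 overlapped 16.4% of lost gene-end regions (11.5 to 22.8), an interval that held the 21.0% of the other gene-end regions. Lost distal regions had it at 15.6% (13.3 to 18.2), against 22.6% of the other distal regions. Gained regions with SATB1 ranked higher in the shSATB1 lists than gained regions without it, with a median mean percentile of 29.6 against 20.8. Within the 10000 highest peaks of each list, SATB1 overlapped 31.5% of lost and 64.2% of gained regions, and without shSATB1 replicate 2 it overlapped 27.6% of the gained regions.

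The highest-ranked lost gene-end region lay 0.4 kb inside SLC22A16, a carnitine transporter gene (chromosome 6, 110473620 to 110476213). It was at percentile 87.1 and 83.0 in the shCtrl lists and had no peak in either shSATB1 list. The next was 0.908 kb into CDHR1, a cadherin-related gene of photoreceptors (chromosome 10, 84195445 to 84198270), at 55.4 and 63.3 in shCtrl. The region of DHX9, an RNA helicase, lay at the 3′ end of the gene, with 3.43 and 3.09 kb covered in shCtrl. GADD45B, whose promoter is printed above, had 0 kb in both shSATB1 libraries and 1.35 and 2.42 kb in the shCtrl libraries, at percentile 59.9 and 46.2. GLIPR1 was the 1 of these 5 regions with SATB1, at percentile 53.8 and 50.2 in shCtrl.

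Among distal losses the highest-ranked was a region 309 kb from BRD1, which encodes a scaffold of histone acetyltransferase complexes, at percentile 87.3 and 78.0 in shCtrl (chromosome 22, 49460978 to 49464647). The longest of the 5, between genes on chromosome 5 (1996094 to 2002843), covered 5.97 and 6.19 kb in shCtrl and nothing in shSATB1. It lay in a stretch of 200 kb in which 4 of 5 H3K27ac regions were lost. The other 3 lay inside SH3KBP1, an adaptor of receptor endocytosis, 281 kb from TBC1D22A, and 182 kb from EBF1, the B-lineage transcription factor gene. None of these 5 overlapped SATB1.

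Among gained gene-end regions, that at the 3′ end of PCYT1A, the rate-limiting enzyme of phosphatidylcholine synthesis, ranked highest (chromosome 3, 196235325 to 196238458). It was at percentile 57.4 and 63.7 in the shSATB1 lists and had no peak in either shCtrl list. DCAF4 had 1.5 and 1.34 kb in shSATB1 and ZSCAN20 1.1 and 0.93 kb, against 0 kb in shCtrl for both, and both overlapped SATB1, CTCF and the longer Matrin 3 list. A region 1.92 kb before VMA21, an assembly factor of the proton pump of lysosomes, was at 57.4 and 57.2 in shSATB1. The region 0.206 kb from the 3′ end of ADCY7, an adenylate cyclase gene, lies inside BRD7, a subunit gene of a chromatin remodeller, and covered 2.96 and 2.76 kb in shSATB1 (chromosome 16, 50318341 to 50321303).

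The distal gains were led by a region inside NLRP4, at percentile 77.6 and 73.1 in shSATB1. A region 32.9 kb from ARID5B, a gene that the TAL1 complex activates in T cell leukaemia, was the longest of these 5, with 5.05 and 3.93 kb in shSATB1 and none in shCtrl (chromosome 10, 62129796 to 62134843). ARID5B itself also had more H3K27ac length, as given further on. Regions near RAP2B, a small GTPase gene, and inside SARDH, a mitochondrial enzyme gene, and RPS6KA2, a kinase gene of the MAP kinase pathway, completed the 5. SATB1 overlapped 3 of them, at NLRP4, ARID5B and RPS6KA2.

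Regions that every library called were narrower in shSATB1 both at gene ends and away from them. Among the 12261 such regions, 4892 (39.9%) had less covered length in both shSATB1 lists than in both shCtrl lists, and 913 (7.45%) had more. At gene ends the median covered length was 2048.5 and 1883 bp in shSATB1 and 2272 and 2243 bp in shCtrl. At distal regions it was 2335 and 2159 bp in shSATB1 and 2744 and 2678 bp in shCtrl. The median ratio of shSATB1 to shCtrl was 0.889 at gene ends, where 37.4% of regions were narrower and 6.57% wider, and 0.864 at distal regions, where 42.2% were narrower and 8.26% wider. At equal list length the shares were 39.9% and 7.4%. Regions were also broken up into several peaks: 8.97% and 9.34% of them were split in shSATB1, against 5.45% and 5.24% in shCtrl (exact permutation p = 0.333, the floor). Without shSATB1 replicate 1 there were 7758 narrower regions. The wider ones numbered 1857 and 2808 when shSATB1 replicates 1 and 2 were left out, and 2252 and 2172 when the shCtrl ones were.

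The largest difference towards less length was in a long domain. The domain inside ETV6, an ETS family repressor rearranged in leukaemia, covered 64.3 and 56.3 kb in shSATB1 and 76.4 and 74.6 kb in shCtrl (chromosome 12, 11749338 to 11826858). Its percentile stayed near the top of every list, at 97.8 and 98.2 in shSATB1 and 98.8 and 98.7 in shCtrl. A region inside DAAM2, a formin gene, covered 5.22 and 6.22 kb in shSATB1 and 14.3 and 16.8 kb in shCtrl, the largest relative difference of the 5 regions at the top of this order. Regions inside ZMIZ1, a cofactor of NOTCH1, over TMA7B and GRAP2, the adaptor of T cell receptor signalling, and inside MACROH2A1, a histone variant gene, differed by −7.46 to −8.84 kb.

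Fewer regions went the other way. The region inside EPS15L1, an endocytosis gene, covered 9.2 and 9.01 kb in shSATB1 and 1.62 and 1.6 kb in shCtrl (chromosome 19, 16444142 to 16455395), at percentile 55.1 and 42.5 in shSATB1 and 2.28 and 9.24 in shCtrl. CD40LG, the gene of the CD40 ligand of helper T cells, had 35.4 and 33.2 kb in shSATB1 and 30.9 and 26.1 kb in shCtrl. RHEX, a regulator of erythroid expansion, had 12.1 and 9.1 kb in shSATB1 and 4.9 and 4.97 kb in shCtrl, and its percentile was 92.8 and 94.4 against 78.6 and 81.7. Regions 93.5 kb from ETS2 and 212 kb from TRIB2, a pseudokinase gene, were 6.22 and 4.89 kb longer in shSATB1. SATB1 overlapped the regions at CD40LG, RHEX and TRIB2 but not those at EPS15L1 and ETS2.

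Rank separated gene ends from distal regions. At equal list length 11637 regions were called in all 4 lists, and from here on percentiles refer to lists of equal length. Of these 3154 (27.1%) had a lower percentile of peak maximum in both shSATB1 lists than in both shCtrl lists, and 3141 (27%) a higher one. At gene ends 19.2% ranked lower and 29.5% higher, with a median difference of 1.42 percentile points. At distal regions 34.7% ranked lower and 24.5% higher, with a median of −1.15. The mean percentile of gene-end regions exceeded that of distal regions by 2.09 and 0.916 points in the shSATB1 libraries, and lay below it in the shCtrl libraries (a gap of −2.22 and −2.50). The gap differed between the arms by 3.86 points, with both shSATB1 values above both shCtrl values (exact permutation p = 0.333, the floor). Gene-end and distal percentiles share each list, so a higher rank for 1 group lowers the other. Peaks with equal maxima share a percentile, and the full lists held 261 and 236 distinct maxima in shSATB1 against 397 and 372 in shCtrl. The part of this in the small median differences was not tested. By percentile of total signal the gap differed between the arms by 2.81 points.

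Beyond 2 kb, lower ranks outnumbered higher ones at each distance from a gene end. Among regions at the gene starts of the promoter table, 16.9% ranked lower and 31.2% higher. From 2 to 10 kb away from an end 33.5% ranked lower and 22.8% higher, from 10 to 50 kb 34.5% and 23.9%, and beyond 50 kb 35.6% and 26.1%. Percentiles of the shSATB1 libraries correlated at r = 0.854 with each other and those of the shCtrl libraries at 0.897, and between the arms r was 0.776 to 0.779, across 11637 regions that are not independent replicates. With shSATB1 replicate 1 left out 4882 regions ranked lower and 4839 higher, and with its replicate 2 left out 5342 and 5170 did.

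Regions that carried SATB1 in control cells stood further above the others after knockdown. Over all regions the mean percentile with SATB1 exceeded that without it by 23 and 23.01 points in shSATB1 and by 18.57 and 18.49 points in shCtrl, a difference of 4.47 points. At distal regions the gap was 24.14 and 23.69 points in shSATB1 and 17.95 and 17.66 in shCtrl. At gene ends it was 22.17 and 22.52 points in shSATB1 and 19.04 and 19.14 in shCtrl. The arms did not overlap in any of these (exact permutation p = 0.333 for each, the smallest possible).

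**Figure D3:**
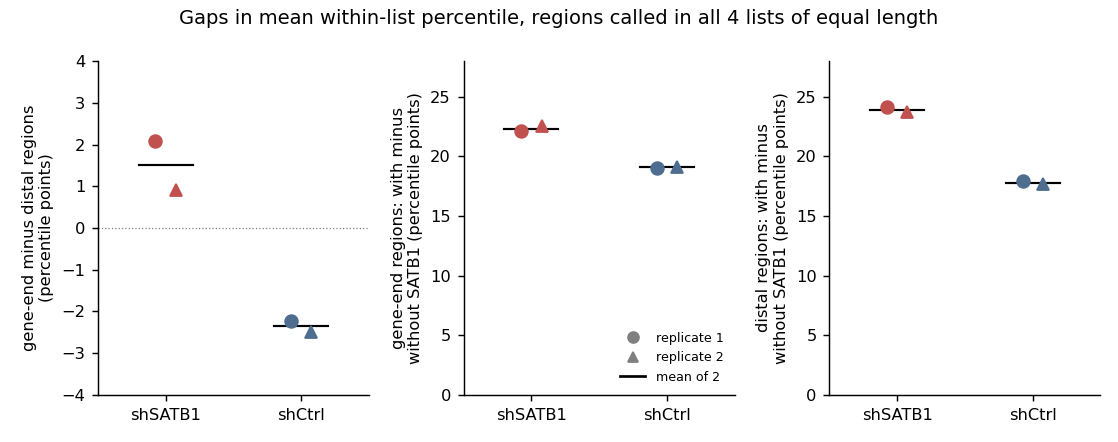
Gaps in mean within-list percentile (percentile points) among regions called in all 4 lists of equal length, with shSATB1 left of shCtrl; points are libraries and bars the mean of 2. The gap of gene-end minus distal regions is above 0 in both shSATB1 libraries and below 0 in both shCtrl libraries, and the gap of regions with minus without SATB1 is larger in shSATB1 at gene ends and at distal regions.

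The largest share of lower ranks was among distal regions without SATB1. Of 1946 such regions 40.8% ranked lower in shSATB1 and 15.2% higher, with a median difference of −6.24 points. Distal regions with SATB1 were near balance, with 31.8% lower, 29.1% higher and a median of −0.125. Gene-end regions with SATB1 ranked higher more often than lower, at 35.3% against 17.0%, while those without it had 19.9% higher and 23.1% lower. The order of these distal groups was the same within bins of rank. In 4 bins of equal size by mean percentile, from the lowest up, 29.5%, 44.9%, 53.9% and 57.5% of distal regions without SATB1 ranked lower, and 22.4%, 27.5%, 35.9% and 35.8% of those with SATB1. The bins held 853, 586, 373 and 134 distal regions without SATB1 and 688, 836, 995 and 1446 with it. They were made from the same percentiles that are compared, so they are a description and no separate check. For width the pooled shares lay closer together: 45.6% of distal regions without SATB1 and 40.3% of those with it were narrower, and 39.6% and 36.1% of gene-end regions. Regions were also put in 4 bins of equal size by mean covered length. In each bin more regions without SATB1 than with it were narrower, at both places. At distal regions the shares were 45.5% against 32.8% in the second-shortest bin and 55.7% against 48.8% in the longest. These bins too were made from the lengths that are compared.

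**Figure D4:**
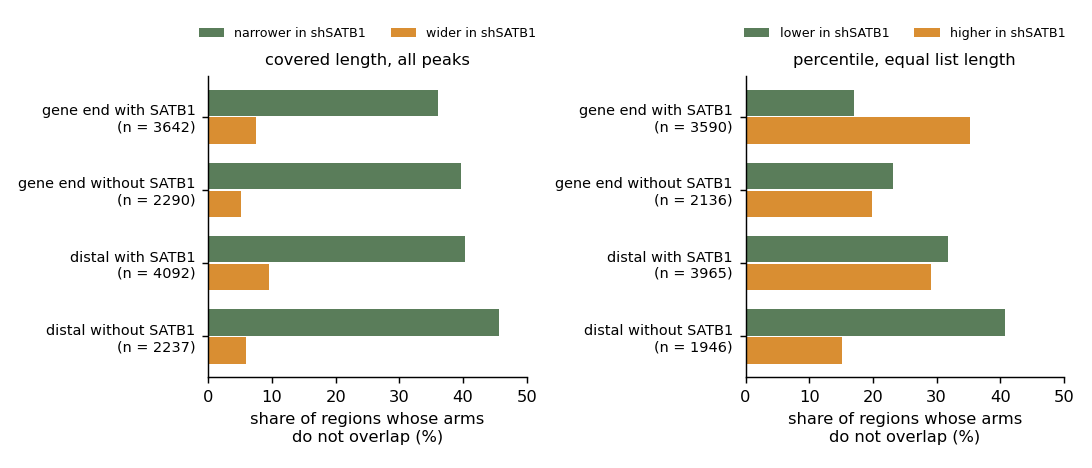
Share of H3K27ac regions called in all libraries whose shSATB1 and shCtrl values do not overlap (%), by place and SATB1 overlap, for covered length with all peaks (narrower or wider in shSATB1) and for percentile at equal list length (lower or higher in shSATB1). Narrower regions outnumber wider ones in each group, while higher ranks outnumber lower ones at gene ends with SATB1 alone (35.3% against 17.0%).

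The 5 largest differences downward in percentile began with a region inside GPHN, named by the end of GARIN2 0.722 kb away (chromosome 14, 67185683 to 67188718). It was at percentile 1.88 and 12.5 in shSATB1 and 77.9 and 76.4 in shCtrl. A region inside DAB1, an adaptor gene of reelin signalling, was at 20.6 and 16.9 in shSATB1 and 82.9 and 81.8 in shCtrl. Regions inside SIRPB1, a receptor gene of the signal regulatory family, CBFA2T3, a corepressor of the TAL1 complex, and CTDSPL, a phosphatase gene, differed by −59.8 to −60.2 points. The region in CTDSPL also covered 0.821 and 0.989 kb in shSATB1, against 3.91 and 4.03 kb in shCtrl. SATB1 overlapped the regions at GARIN2, DAB1 and SIRPB1, and CTCF of the control arm overlapped all but the one at DAB1.

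The largest differences upward were led by a region 24.2 kb from C1D, at percentile 72.6 and 80.8 in shSATB1 and 5.76 and 5.74 in shCtrl (chromosome 2, 68087226 to 68091513). It covered 3.83 and 4.06 kb in shSATB1 and 1.67 and 1.58 kb in shCtrl. A region inside STIM1, which encodes the calcium sensor of the endoplasmic reticulum that drives store-operated calcium entry in T cells, was at 90.7 and 78.9 in shSATB1 and 2.59 and 28.9 in shCtrl (chromosome 11, 4005912 to 4008921). A region at an end of DTHD1, one 180 kb from ST3GAL1, a sialyltransferase gene, and one inside ABTB2 followed. They were 58.1 to 66.4 points higher in shSATB1. All 5 of these regions overlapped SATB1, and 0 of the 5 overlapped CTCF of the control arm. Of all regions called in all 4 lists of equal length, 64.9% overlapped SATB1 and 85.1% CTCF.

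At the level of genes, a peak lay at an end of 8376 and 7634 of 19970 protein-coding genes in shSATB1 and of 8300 and 8096 in shCtrl. Of these genes 169 (0.846%) lost and 100 (0.501%) gained it. The call depends on the 2 kb window, since for 28 of the 169 and 6 of the 100 the other arm had a peak in the same region, just beyond it. At equal list length 159 genes lost and 140 gained the call, and 110 of the 169 and 84 of the 100 were among them. With the 10000 highest peaks of each list 167 lost and 205 gained it, so gains then outnumbered losses. Over the gene and 2 kb each side, 3904 of 10523 genes with any H3K27ac (37.1%) had less covered length in both shSATB1 libraries than in both shCtrl libraries, and 755 (7.17%) had more, with a median difference of −0.344 kb. The highest peak at an end ranked lower at 1198 of 6780 genes (17.7%) and higher at 2048 (30.2%). Leaving out shSATB1 replicate 1 gave 634 lost and 183 gained genes and 6038 with less length, and leaving out its replicate 2 gave 280 and 380. Leaving out shCtrl replicate 1 gave 292 and 266, and leaving out its replicate 2 gave 346 and 199. Genes with more length numbered 1455 and 2462 when shSATB1 replicates 1 and 2 were left out, and 1726 and 1572 when the shCtrl ones were.

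Genes of thymocytes and of V(D)J recombination, the joining of antigen receptor segments, had less H3K27ac length at 8 of 15 genes with any peak (53.3%) and more at 0, where over all genes the shares were 37.1% and 7.17%. At 11 with a rank at an end 8 ranked lower and 1 higher, with a median of −4.61 points against 1.66 for all genes. CD1A, CD1B, CD1C, CD1D and CD1E of this list are neighbours on chromosome 1, and CD1C lies within the annotated span of CD1B. Their values are thus not independent. CD1D, a lipid-presenting molecule, covered 4.94 and 4.54 kb in shSATB1 and 8.13 and 7.97 kb in shCtrl, and its end was at percentile 68.7 and 70.3 against 85.0 and 78.8. RAG2, a subunit of the recombinase, covered 2.44 and 3.32 kb in shSATB1 and 3.91 and 3.93 kb in shCtrl. PTCRA, the alpha chain of the pre-TCR, ranked at 33.2 and 45.8 in shSATB1 and 56.7 and 64.3 in shCtrl. CD38, a surface enzyme of thymocytes, ranked at 10.9 and 16.9 in shSATB1 and 46.5 and 44.4 in shCtrl. CD8A, a coreceptor chain, had 0.813 and 0 kb in shSATB1 and 1.94 and 1.72 kb in shCtrl, while AQP3, a water channel, had 2.64 and 2.95 kb in shSATB1 and 3.68 and 4.33 kb in shCtrl. The CD8A end was among the weakest peaks of the shCtrl lists, at percentile 2.59 and 2.6. The arms did not overlap at any of these 6 genes in the measure given. PTCRA and CD38 were picked after their values were seen.

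Of the 24 T cell receptor signalling genes 0 lost the call at an end, where 0.846% of all genes did. Of 22 with any peak 10 (45.5%) had less length and 2 (9.09%) more, against 37.1% and 7.17% of all genes. ZAP70, the kinase that binds the activated receptor, covered 15.5 and 14.7 kb in shSATB1 and 18.7 and 18.7 kb in shCtrl, and stayed among the highest peaks of every list, at percentile 99.8 and 99.9 against 99.9 and 100. FYN, a Src family kinase, had 24.6 and 17.7 kb in shSATB1 and 29.2 and 25.4 kb in shCtrl. GRAP2 had 40.9 and 36.9 kb in shSATB1 and 48.4 and 45.3 kb in shCtrl. PRKCQ, the protein kinase C of the immune synapse, went against these, with 48.8 and 46.2 kb in shSATB1 and 39.1 and 36.9 kb in shCtrl. The receptor chains CD3D, CD3E and CD3G were above percentile 99 at their ends in all 4 libraries.

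Of T-lineage transcription factors 8 of 23 (34.8%) had less and 2 (8.7%) more, close to the 37.1% and 7.17% of all genes. RUNX1, which with TAL1 forms the core leukaemia circuit, covered 145 and 136 kb in shSATB1 and 153 and 148 kb in shCtrl, and its end ranked higher, at 99.5 and 99.3 against 98.8 and 93.2. IKZF2, the Helios gene, had 96.8 and 88.1 kb in shSATB1 and 81.4 and 87.4 kb in shCtrl, with shSATB1 replicate 2 just above the shCtrl libraries. TCF12, an E protein gene, had 47.4 and 48.0 kb in shSATB1 and 56.0 and 51.4 kb in shCtrl. NFATC1, a calcium-dependent factor, had 13.1 and 13.9 kb in shSATB1 and 18.6 and 20.2 kb in shCtrl.

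In the list of TAL1 partners and leukaemia oncogenes 6 of 17 (35.3%) had less and 1 (5.88%) more, also close to the shares of all genes (37.1% and 7.17%). LYL1, a close relative of TAL1, lost its call, through a region 0.073 kb from its 3′ end with 1.61 and 1.33 kb in shCtrl and none in shSATB1. That end was low in the shCtrl lists, at percentile 9.08 and 5.74. NOTCH1, the receptor mutated in most T cell leukaemias of this kind, covered 7.37 and 9.18 kb in shSATB1 and 14.5 and 15.4 kb in shCtrl. DTX1, a NOTCH target, had 11.9 and 9.84 kb in shSATB1 and 22.3 and 19.7 kb in shCtrl. BCL2, which blocks apoptosis, had 5.63 and 4.94 kb in shSATB1 and 13.2 and 11.5 kb in shCtrl. ARID5B was the 1 gene with more, at 113 and 104 kb in shSATB1 and 101 and 97.4 kb in shCtrl.

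Of the 324 distinct listed genes 4 lost the call at an end and 0 gained it, where 0.846% and 0.501% of all genes did. Cytokine and receptor genes were 3 of the 4. At equal list length 2 of these 3 kept the loss, since the CCR4 end then had no peak in shCtrl replicate 1. In shCtrl replicate 2 it was at percentile 28.9. Beyond CCR4, TNFRSF1B, a receptor for tumour necrosis factor, lost a region 0.791 kb past its 3′ end with 1.38 and 1.38 kb in shCtrl. At IL4R, the interleukin 4 receptor, the call is one of window. The region 1.65 kb past the gene covered 1.46 and 1.5 kb in shSATB1 and 1.86 and 2.01 kb in shCtrl, and the shSATB1 peaks ended outside 2 kb. IL10, an anti-inflammatory cytokine, covered 4.1 and 2.9 kb in shSATB1 and 5.76 and 4.98 kb in shCtrl, and CXCR4, a chemokine receptor of T cell leukaemia, 4.13 and 4.42 kb against 5.07 and 5.25 kb. IL17RA, a receptor for interleukin 17, had 9.5 and 8.32 kb in shSATB1 and 9.87 and 10.3 kb in shCtrl. Of 20 genes 6 (30%) had less and 0 had more, against 37.1% and 7.17% of all genes.

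Immediate-early and NF-kappaB genes had less at 8 of 22 (36.4%) and more at 1 (4.55%), near the 37.1% and 7.17% of all genes. Their ends ranked lower at 6 of 16 and higher at 1, where 17.7% of all genes ranked lower and 30.2% higher. TNFAIP3, an inhibitor of NF-kappaB signalling, covered 14.0 and 14.4 kb in shSATB1 and 18.3 and 18.8 kb in shCtrl, and ranked at 83.0 and 84.5 against 95 and 94.0. FOSL2, an AP-1 subunit, had 3.51 and 3.27 kb in shSATB1 and 7.98 and 7.13 kb in shCtrl, and NFKB1 8.92 and 6.33 kb against 10.4 and 8.97 kb. MYB, a factor of the TAL1 circuit, had more, with 25.7 and 26.4 kb in shSATB1 and 23.8 and 24.0 kb in shCtrl. Among apoptosis genes 12 of 24 (50%) had less and 1 (4.17%) more, against 37.1% and 7.17% of all genes. BCL2L1, a survival factor, covered 32.4 and 31.1 kb in shSATB1 and 43.9 and 44.1 kb in shCtrl, and CFLAR, an inhibitor of caspase 8, 9.15 and 8.37 kb against 11.1 and 10.8 kb although its end ranked higher, at 88.4 and 87.4 against 78.4 and 79.3. BID, which links death receptors to mitochondria, had 10.9 and 9.53 kb in shSATB1 and 12.1 and 12.7 kb in shCtrl.

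Genome architecture genes, the list of CTCF, cohesin, lamin and nuclear matrix genes, had less at 7 of 24 (29.2%) and more at 5 (20.8%), where all genes had 37.1% and 7.17%. RAD21, a cohesin subunit, covered 8.25 and 6.97 kb in shSATB1 and 6.64 and 6.11 kb in shCtrl. LMNB1, lamin B1, had 4.44 and 5.43 kb in shSATB1 and 3.57 and 3.77 kb in shCtrl, and YY1, a looping factor, 2.6 and 3.1 kb against 1.87 and 1.96 kb. PDS5B, a cohesin regulator, had less, with 7.43 and 5.07 kb in shSATB1 and 10.6 and 8.48 kb in shCtrl. With the 10000 highest peaks of each list the difference turned round for PDS5B, to 0.70 kb, and for RAD21, to −0.05 kb. Despite more length in the full lists, 2 ends ranked lower in shSATB1. These were YY1, at 60.8 and 67.1 against 74.2 and 77.0, and RAD21, at 93.2 and 93.6 against 94.7 and 93.8. The LMNB1 end ranked higher. Of 22 genes of this list with a rank, 3 ranked lower and 9 higher, where 17.7% and 30.2% of all genes did.

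Genes that write, erase or read histone acetylation had less at 11 of 25 (44.0%) and more at 3 (12%), against 37.1% and 7.17% of all genes. Their ends ranked higher at 10 of 21 and lower at 4, the same tilt as over all genes (30.2% higher and 17.7% lower). SMARCA4, a remodeller ATPase, had 13.1 and 10.9 kb in shSATB1 and 20.7 and 19.1 kb in shCtrl. HDAC4 had 113 and 102 kb in shSATB1 and 128 and 119 kb in shCtrl, although its end ranked higher, at 96.7 and 94.2 against 90.0 and 90.6. HDAC9, like HDAC4 a class IIa deacetylase, had 16.4 and 13.4 kb in shSATB1 and 10.4 and 11.4 kb in shCtrl. With the 10000 highest peaks the HDAC9 difference was −0.74 kb, in the other direction.

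Ribosomal protein genes had less at 7 of 20 (35.0%) and more at 1 (5.0%), near the shares of all genes (37.1% and 7.17%). RPS19 covered 2.92 and 2.77 kb in shSATB1 and 8.2 and 8.68 kb in shCtrl, while its end stayed high in every list, at 94.8 and 94.1 against 94.2 and 91.0. RPLP0 had 3.04 and 2.57 kb in shSATB1 and 4.37 and 3.72 kb in shCtrl, although its end ranked higher, at 68.7 and 57.2 against 38.1 and 44.4. RPS6 had 2.38 and 2.27 kb in shSATB1 against 1.92 and 1.82 kb. Cell cycle genes had less at 9 of 23 (39.1%) and more at 2 (8.7%), again near those shares. RB1, the retinoblastoma gene, covered 22.7 and 18.4 kb in shSATB1 and 11.6 and 11.1 kb in shCtrl, the highest ratio among the listed genes plotted here. CCND3, the cyclin D of thymocytes, had 42.4 and 39.7 kb in shSATB1 and 51.1 and 48.5 kb in shCtrl, and MKI67, a proliferation antigen, 3.35 and 3.14 kb against 5.73 and 5.46 kb. E2F3, a cell cycle factor, had 10.0 and 7.84 kb in shSATB1 and 12.8 and 10.4 kb in shCtrl, a difference that was 0.19 kb with the 10000 highest peaks.

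Of the genes of other lineages, 5 of 12 B cell markers had an end peak in each library, and 4 of these 5 ranked lower in shSATB1 with 0 higher, where 17.7% of all genes with a rank were lower and 30.2% higher. BLK, a Src family kinase of B cells, was at percentile 20.6 and 49.0 in shSATB1 and 87.0 and 90.2 in shCtrl, with 9.31 and 8.14 kb covered against 13.6 and 11.8 kb. VPREB1 and IGLL1, the surrogate light chains of pre-B cells, had 2.04 and 2.96 kb in shSATB1 against 3.94 and 3.51 kb in shCtrl, and 6.69 and 6.01 kb against 7.75 and 6.78 kb. The myeloid genes CEBPE, a granulocyte factor, and SPI1, the PU.1 gene, had 4.13 and 3.97 kb against 5.84 and 5.53 kb, and 1.5 and 1.27 kb against 1.97 and 1.75 kb. TFRC, the transferrin receptor of the erythroid list, had 1.92 and 1.69 kb in shSATB1 and 2.54 and 2.94 kb in shCtrl. Neuronal markers had an end peak at 2 and 1 of 12 genes in shSATB1 and at 1 and 0 in shCtrl.

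**Figure D5:**
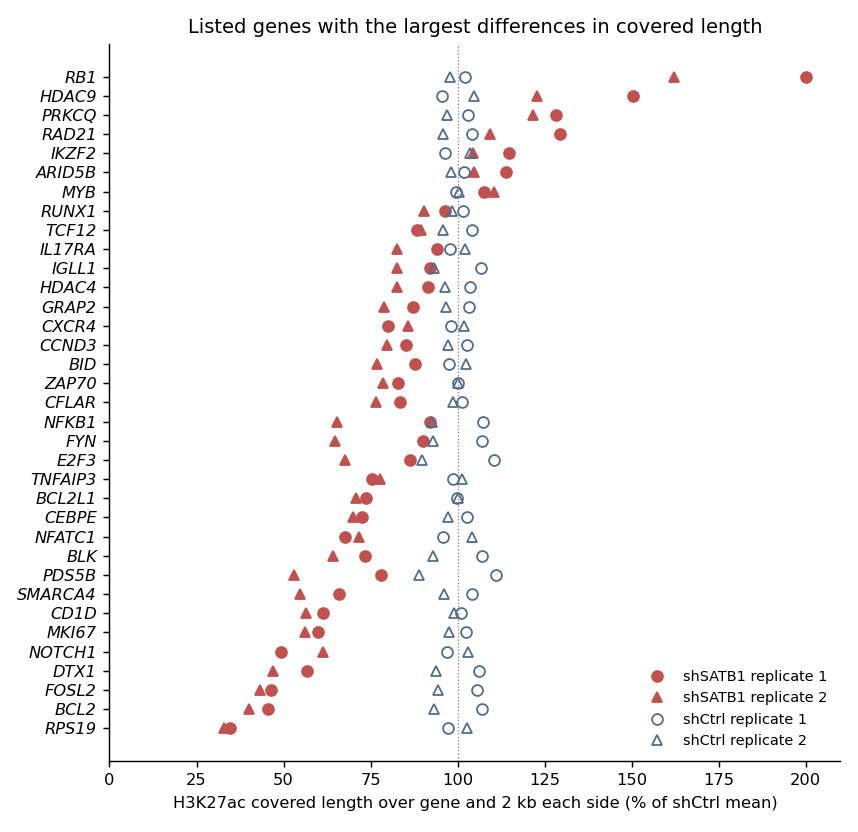
H3K27ac covered length over each gene and 2 kb each side in the 4 libraries, as % of the mean of the 2 shCtrl libraries, for the listed genes with the largest non-overlapping differences and at least 5 kb in both shCtrl libraries. Filled red points are shSATB1 and open blue points shCtrl. Of 35 genes 28 lie below 100% on average in shSATB1, down to RPS19 at 33.7%, and 7 lie above it. Over all genes 3904 had less and 755 more without overlap of the arms, so a majority below 100% is not particular to the listed genes.

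CTCF calls were fewer in shSATB1 over each class of H3K27ac region. CTCF peaks overlapped 15.2% ± 3.12 of the lost regions in the 3 shSATB1 CTCF libraries and 42.3% ± 2.28 in the 3 shCtrl ones (SD, exact permutation p = 0.1, the floor for 3 against 3). Over gained regions the shares were 23.7% ± 4.17 in shSATB1 and 36.3% ± 1.30 in shCtrl, and over regions called in all libraries 57.5% ± 6.49 and 83.7% ± 1.2 (exact permutation p = 0.1 for each, n = 3). The difference in share was −12.6 points at gained, −27.2 points at lost and −26.2 points at regions called in all libraries. As a ratio of shSATB1 to shCtrl it was 0.653 at gained regions, close to the 0.687 of regions called in all libraries, and 0.358 at lost regions. The CTCF lists of shSATB1 were shorter as a whole, with 14695, 17904 and 20284 peaks against 31270, 31141 and 32540 in shCtrl, and the part of this in the shares was not tested. CTCF was called in every shSATB1 and no shCtrl CTCF library at 3 regions genome-wide. The one in BRD7 lies in the gained H3K27ac region by ADCY7, with 2.27 and 2.27 kb of H3K27ac in shSATB1 and 0 in shCtrl. The one in STIM1 lies in the region with the large difference in rank, and the one in FAM149B1 has no H3K27ac in any library.

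Lost and gained regions were spread over the chromosomes. Lost regions made up 3.18% of those on chromosome 19 and 10.3% on chromosome 21, the lowest and highest shares, and gained regions from 0.955% on chromosome 22 to 3.76% on chromosome 5. The densest group of losses within 200 kb was at UMODL1 and ABCG1, a cholesterol exporter gene, on chromosome 21 (42055901 to 42224912), with 5 of 10 regions lost. At BATF3 and NSL1 on chromosome 1 (212682172 to 212755524) 3 of 3 regions were lost, BATF3 being an AP-1 family factor of dendritic cells. Gains grouped inside UBE2E2, a ubiquitin-conjugating enzyme gene, on chromosome 3 (23103261 to 23220553, 4 of 9) and inside BACH2, a repressor that restrains effector T cells, on chromosome 6 (90043846 to 90106676, 4 of 6). These groups were picked after their values were seen.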

How the data were processed

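H3K27ac CUT&Tag peaks of 2 shSATB1 and 2 shCtrl Jurkat libraries were used, with the SATB1, CTCF and Matrin 3 lists of the series as annotation. Per the labels and the submitters' processing notes, the authors used Trim Galore, Bowtie2, SAMtools, deepTools, MACS2 and SEACR on GRCh38 (hg38). Tool versions, and any control library for peak calling, are not given in the sources used here. Each deposited list gives, per peak, total and maximum signal with no scaling recorded, so signal was used only to rank peaks within a list, and depth is unknown. Peaks off chromosomes 1 to 22 and X, 174 of 69075 (0.252%), were left out.

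Merging, covered length, percentiles and shares (Wilson intervals at 95%, which cover counting error only) were computed with Python 3.11.15, numpy 2.4.6 and pandas 2.3.3, and checked on simulated lists. A percentile is the rank of a region's highest peak maximum within its list, over all peaks for lost and gained regions and for regions named by length, and at equal list length for comparisons of rank and for gene ends. SATB1 regions (13072) were those in both SATB1 lists, and CTCF regions (30212) those in at least 2 of 3 shCtrl lists. Library values were compared by two-sided exact permutation tests, and counts of regions or genes have no test. Gene positions were those of 19970 protein-coding genes in a RefSeq table of GRCh38.p14 without strand, with starts and promoters for 15811 of them, and exons were not told apart from introns. Positions are 1-based.

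Members and the 16 gene lists (324 distinct genes, all matched) were chosen with earlier results of these data known. Named regions were the 5 highest-ranked of each lost or gained class, by place, and the 5 largest non-overlapping differences in length and in percentile in each direction. Named list members were those that lost or gained a call at an end and up to 4 per list with the largest non-overlapping difference in length, with SATB1 and the markers; 2 such genes are not reported here. Alternatives were other list lengths, overlap, merging, windows, signal columns and SATB1 regions, leaving out 1 library at a time, and a block for the replicate number.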

Additional observations from a re-analysis of the deposited data

How the results depend on the processing

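The 21 main results had 217 alternative values, of which 152 kept their direction and size, 62 moved and 3 reversed. Covered length, median width, the share of split regions and both percentile gaps kept their direction under each alternative run. The difference in the gene-end share of peaks reversed to −0.2943 points at equal list length by maximum signal. With 1 library left out in turn, peak number differed by −8.742% to 2.417% and the gene-end share of peaks by −0.004329 to 0.5666 points, both reversing without shSATB1 replicate 2. Leaving out libraries gave 1591 to 2437 lost and 808 to 1730 gained regions, with gene ends at 15.65% to 24.74% and 20.28% to 25.84%, and SATB1 at 10.95% to 16.91% and 27.63% to 41.88%. It gave 6942 to 7758 narrower and 1857 to 2808 wider regions, 4403 to 5342 ranked lower and 4592 to 5170 higher, 280 to 634 genes lost and 183 to 380 gained, and 4820 to 6038 genes with less length and 1455 to 2462 with more. Fewer libraries must then be on 1 side, which by construction raises such counts. At equal list length gene ends made up 16.43% (maximum signal) and 16.28% (total signal) of lost regions, and 23.63% of gained ones by total signal, with SATB1 at 15.74% of lost ones by maximum signal. The 10000 highest peaks of each list gave 698 lost regions, with gene ends at 21.35% of lost and 36.78% of gained and SATB1 at 31.52% and 64.21%. They gave 2901 narrower and 504 wider regions, 2032 ranked lower and 2042 higher, and 167 genes lost and 205 gained at an end. With these peaks the length differences of PDS5B (0.7025 kb), RAD21 (−0.0495 kb), HDAC9 (−0.7395 kb) and E2F3 (0.191 kb) reversed, and the cause was not tested. Requiring 50% of a region covered gave 1912 lost regions, with gene ends at 20.29% and SATB1 at 22.07%. Gene ends made up 11.79% of lost regions with a 1 kb window, 23.67% of lost and 23.84% of gained with 5 kb, and 9.091% and 14.15% by gene start, a definition chosen after seeing the data. With peaks of either SATB1 list the SATB1 shares were 19.08% and 51.02%. Peak number has no value at equal list length. The percentile gaps and the share of split regions were also added after seeing the data. The replicate number as a block left the covered length difference at −17.22%. The other 5 values it was run for (peak number, median width, gene-end share of peaks, lost and gained regions) also kept their size, and the smallest p of 2 pairs is 0.5. Deviations of same-numbered libraries correlated at −0.0014, so the numbers are not taken to pair them. Unknown depth limits what a missing call shows.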
